A study of Mus musculus with 4 samples.

Results

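The genes Sox4, Sox11 and Sox12 encode the group C SOX transcription factors, and 148 of 121574 open chromatin regions were assigned to them in dental mesenchyme of the mouse incisor. A region went to a member when the protein-coding transcription start site (TSS) nearest to its midpoint belonged to that gene, or when it overlapped the 1 kb on either side of the gene's TSS. By this rule Sox4 held 101 regions, Sox11 held 40 and Sox12 held 7, and the 3 genes belong to 16816 protein-coding genes with a region out of 21827 annotated. The set was chosen on measured values of the same library, because Sox4 ranked among the genes with most reads, so the read totals below describe the genes and no test was made on them. The assay was ATAC-seq, which inserts sequencing adapters into accessible DNA with a transposase, and the value of a region is the number of its sequencing reads. All data came from 1 group, wild-type C57BL/6 mice aged 4 weeks whose incisor dental mesenchyme was profiled without treatment. The 4 samples are sequencing lanes given under 1 shared name as 1 value a region, so there are no replicates, and intervals (95%, exact Poisson for reads and exact binomial for shares) cover counting error only. In such a bulk library, fewer cells with an open region and less signal per cell cannot be told apart.

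SOX factors bind DNA through a high-mobility-group box that recognises a short A- and T-rich motif and bends the helix. The group C members share this box and a carboxy-terminal activation domain, are expressed in many embryonic progenitor populations, and act in part redundantly in neural, cardiac and skeletal development, with Sox12 known as the weakest activator of the set. They regulate transcription together with partners such as POU factors. Dental mesenchyme derives from cranial neural crest, and in the continuously growing mouse incisor its progenitors supply odontoblasts and pulp cells throughout life.

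The library held 2297894 reads in regions. A median region had 7 reads and 7101 regions had 0, while a median gene had 85 reads over 4 regions, 48 of them at its promoter. Of 11 dental mesenchyme markers, 9 lay above the median gene, with a median of 367 reads (range 44 to 1061), and 10 had a promoter region, Barx1 being the exception. Markers of other cells the tissue could hold were lower in their medians, with 115 reads for 6 dental epithelium genes (8 to 247), 81 for 6 neuronal genes (5 to 223), 95.5 for 4 Schwann cell genes (30 to 240) and 152 for 4 endothelial genes (16 to 1032). In the same order, 3, 3, 2 and 2 of these genes lay above the median gene, and 5, 4, 2 and 3 had a promoter region. The share of all genes with a promoter region is not given here. Of 4 leukocyte genes, Cd68 had no region, none had a promoter region, 1 lay above the median gene and the median was 7 reads (0 to 591). The part of these cell types in the values of the 3 SOX genes was not tested.

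By the nearest protein-coding TSS, Sox4 had the most reads of the 3 genes, and most of them lay far from the gene. Its 101 regions held 1658 reads (interval 1579 to 1739.8), which placed it 11th of 16816 genes in reads and 3rd in number of regions. Sox12 held 690 reads (639 to 743), at rank 260, in 7 regions. Sox11 held 601 reads (554 to 651), at rank 360, in 40 regions. Because Sox4 was picked for its reads, setting these intervals side by side describes counting error and is no test. The interval of Sox4 lay above those of the other 2 genes, while the intervals of Sox11 and Sox12 overlapped. This order depends on the assignment: with TSSs of noncoding genes included, Sox4 held 556 reads, Sox11 327 and Sox12 690, and all regions within 100 kb, whichever gene was nearest, gave 790, 327 and 1219, so that Sox12 came first in both. Within 1 kb of the TSS the order was also different, with 342 reads (307 to 380) for Sox12, 289 (257 to 324) for Sox4 and 257 (227 to 290.4) for Sox11. All 3 promoters lay above the median gene's 48 reads, at percentiles 97.9, 96.7 and 95.3 of genes with a region. The promoter intervals of Sox12 and Sox4 overlapped, as did those of Sox4 and Sox11, whereas those of Sox12 and Sox11 did not. The order turned with the window: 500 bp either side gave 246 reads for Sox11, 239 for Sox4 and 190 for Sox12, and 2 kb gave 257, 295 and 582.

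**Figure D1:**
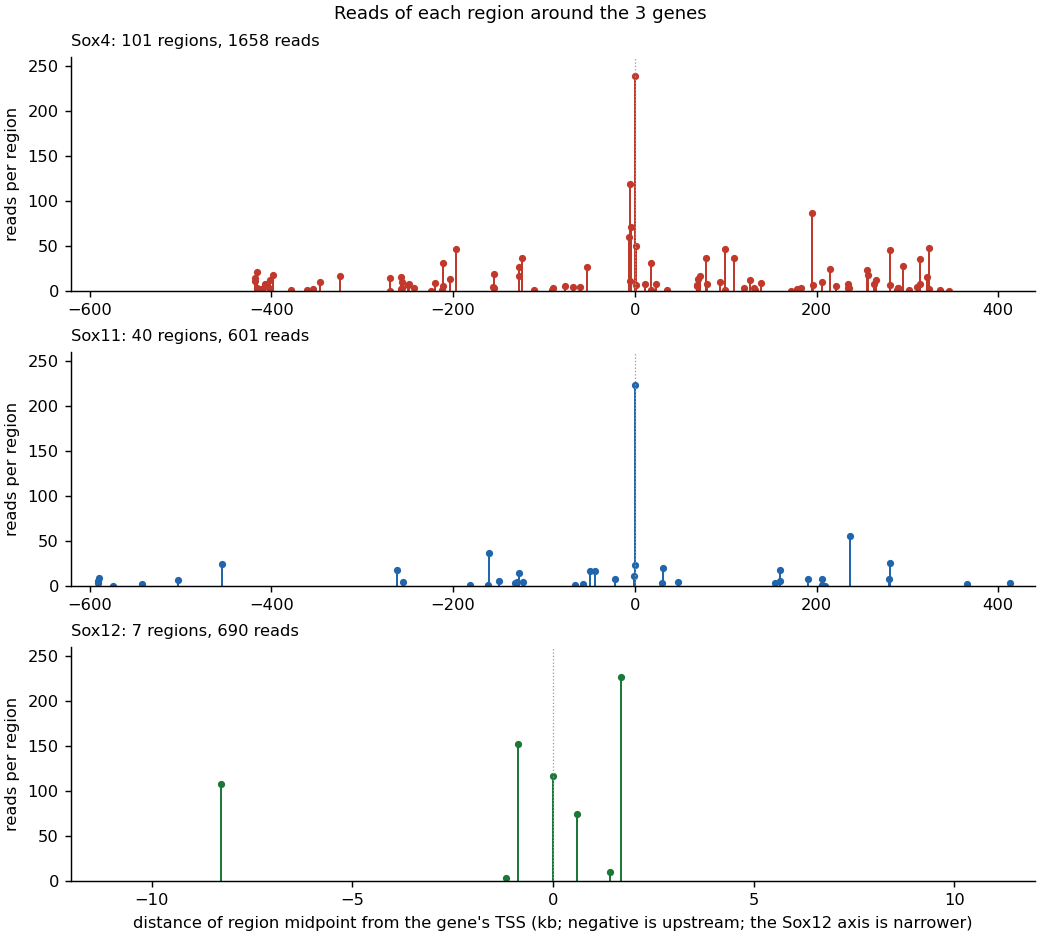
Reads of each region (vertical lines, y axis) against the distance of its midpoint from the TSS in kb (x axis, negative is upstream), with 1 panel a gene and a narrower axis for Sox12. Sox4 shows a promoter region of 239 reads and others of up to 119 reads as far as 418 kb upstream and 346 kb downstream, Sox11 a tall promoter region of 223 reads with sparse low regions, and Sox12 a compact set of 7 regions within 8.27 kb.

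Sox4 (ENSMUSG00000076431.4) is a gene of 4795 bp with 1 exon on the minus strand of chromosome 13, at chr13:28948919-28953713 in mm10. Its largest region, chr13:28953157-28953987, covered the TSS and 5′ untranslated sequence with 239 reads (210 to 271), more than 97.0% of the regions within 1 kb of any protein-coding TSS. The abutting region over its coding sequence, chr13:28952489-28953156, held 50 reads. The 236 bp upstream of the TSS are shown because they lie in the region with most reads of the gene, with an E-box core (CAGCTG) and an NFY box (CCAATCA, here on the opposite strand) in capitals.
Sox4 promoter, GRCm38 chr13:28953714-28953949 (- strand): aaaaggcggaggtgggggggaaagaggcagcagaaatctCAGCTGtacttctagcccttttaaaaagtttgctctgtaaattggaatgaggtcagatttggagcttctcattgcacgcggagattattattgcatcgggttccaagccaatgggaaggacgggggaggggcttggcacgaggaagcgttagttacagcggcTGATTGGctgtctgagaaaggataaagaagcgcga
The E-box match lay at bases 40 to 45 and the NFY match at bases 202 to 208 of this stretch. Over the 250 bp upstream of 32851 RefSeq TSSs, 25.5% held an E-box match of the kinds searched (CAGCTG or CAGATG on either strand) and 7.23% an NFY match.

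A second group of Sox4 regions stood just upstream. The region at chr13:28958459-28959153, 5.09 kb upstream in sequence that is intergenic in GENCODE, held 119 reads (98.6 to 142). Abutting or close to it, regions 4.46 kb and 6.00 kb upstream held 71 reads (55.5 to 89.6) and 60 reads (45.8 to 77.2). These 3 values exceeded those of 99.6%, 98.5% and 97.8% of the 97141 regions over 1 kb from a TSS. Together with the promoter they formed a cluster of 7 regions over 7.82 kb (chr13:28952125-28959945, neighbouring regions at most 5 kb apart) with 556 reads (511 to 604). RefSeq places a long noncoding RNA gene, Gm46405, over all 7. Beyond it, no region lay between 6.00 and 53.1 kb upstream.

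Farther out, the third largest Sox4 region lay 195 kb downstream at chr13:28757838-28758614, inside the long noncoding RNA gene 2610307P16Rik, with 87 reads (69.7 to 107). The central 300 bp of this region and of the one 5.09 kb upstream are shown because these are the Sox4 regions with most reads away from the promoter. Capitals mark E-box and SP/KLF (GGGCGGG) matches on either strand.
Sox4 upstream region, GRCm38 chr13:28958657-28958956 (+ strand): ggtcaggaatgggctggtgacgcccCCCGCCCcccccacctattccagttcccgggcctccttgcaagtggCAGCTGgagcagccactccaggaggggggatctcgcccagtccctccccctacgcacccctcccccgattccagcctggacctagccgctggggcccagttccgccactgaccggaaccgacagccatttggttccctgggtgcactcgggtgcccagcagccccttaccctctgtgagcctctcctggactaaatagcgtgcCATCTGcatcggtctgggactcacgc
Sox4 distal region, GRCm38 chr13:28758077-28758376 (+ strand): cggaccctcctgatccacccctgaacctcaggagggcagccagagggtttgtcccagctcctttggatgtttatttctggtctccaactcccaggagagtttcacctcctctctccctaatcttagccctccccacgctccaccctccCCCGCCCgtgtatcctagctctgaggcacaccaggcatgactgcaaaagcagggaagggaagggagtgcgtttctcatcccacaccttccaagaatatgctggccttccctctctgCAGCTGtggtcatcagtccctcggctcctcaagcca
Both windows held matches of the same 2 motif groups. Such a match describes letters and does not show a bound site.

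The remaining Sox4 regions were spread widely. After those named, the highest were 48 reads at 324 kb downstream, 47 at 197 kb upstream, 46 at 99.2 kb downstream and 45 at 281 kb downstream. The downstream ones lay in 2610307P16Rik and the upstream one in intergenic sequence. Of the 101 regions, 43 had at least 10 reads and 4 had 0. The largest region held 14.4% of Sox4's reads and the 5 largest held 34.7%, and 11 regions were needed to reach 50% of them. Upstream regions numbered 48 with 698 reads, and downstream regions 53 with 960, 289 of these at the promoter. In all, 1102 reads (66.5%, interval 64.1 to 68.7%) lay over 10 kb from the TSS, compared with 39.7% of all reads in regions and 17.5% for the median gene. A share below that of Sox4 was found in 77.2% of genes. These comparisons do not hold room equal. The sequence nearer to its TSS than to any other protein-coding TSS was 799 kb for Sox4 and 56.5 kb for the median gene. Among 647 genes with 500 to 1000 kb of such sequence, the medians were 55 promoter reads and 189 elsewhere, against 289 and 1369 at Sox4. With TSSs of noncoding genes included, Sox4 kept 7 regions with 556 reads, none over 10 kb away. The other 94 regions with 1102 reads went to noncoding or other genes. This alternative for the share over 10 kb was added after the data were seen.

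Noncoding genes and an upstream neighbour held many of the Sox4 regions. The body of 2610307P16Rik (chr13:28460034-28885620, minus strand, 426 kb) covered 45 of them, with 616 reads (37.2% of Sox4's reads). Its own 7 TSSs had 4 regions with 25 reads within 1 kb. A further 12 regions in it, with 126 reads, were nearest to Gm11361. Upstream, 24 Sox4 regions with 183 reads lay in introns of Cdkal1, which encodes a tRNA-modifying enzyme. Of these, 10 regions with 92 reads (74.2 to 113) sat in a 19.6-kb stretch at chr13:29352011-29371631. All 66 regions in the body of Cdkal1 held 633 reads, and the promoter of Cdkal1 held 20. Nearness alone placed these regions with Sox4, and which gene they act on was not measured.

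Sox11 (ENSMUSG00000063632.6), also a single-exon gene on the minus strand, spans 8311 bp at chr12:27334264-27342574. Its promoter held 257 of 601 reads (42.8%) in 3 regions, and the other 344 (57.2%) lay over 10 kb away. The largest, chr12:27342164-27343478, was centred 0.247 kb upstream of the TSS and held 223 reads (195 to 254), above 96.4% of regions within 1 kb of a TSS. The coding exon region held 23 reads, and a region 1.01 kb upstream held 11. The 250 bp upstream of the RefSeq TSS are shown because they lie within this largest region, with E-box and SP/KLF matches in capitals at bases 41 to 46 and 99 to 105.
Sox11 promoter, GRCm38 chr12:27342719-27342968 (- strand): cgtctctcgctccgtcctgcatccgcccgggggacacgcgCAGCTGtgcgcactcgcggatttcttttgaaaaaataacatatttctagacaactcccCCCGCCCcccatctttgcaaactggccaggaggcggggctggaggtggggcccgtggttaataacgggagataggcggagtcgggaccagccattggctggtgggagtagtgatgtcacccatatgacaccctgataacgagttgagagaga
An SP/KLF match was present in 23.4% of RefSeq promoters of this length. The G and C content of the Sox11 stretch was 58.0%, against 50% for Sox4 and 76.0% for the Sox12 stretch shown further on. The ratio of observed to expected CpG was 0.810 for Sox11, 0.776 for Sox4 and 1.04 for Sox12.

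Away from its promoter Sox11 had few high regions. The largest, chr12:27105003-27105714, lay 237 kb downstream in the long noncoding RNA gene Gm9866, with 55 reads (41.4 to 71.6). The next was chr12:27502896-27503425, 161 kb upstream in intergenic sequence, with 36 reads (25.2 to 49.8). These exceeded 97.4% and 94.2% of regions over 1 kb from a TSS, and their intervals overlapped. Below them were 25 reads at 281 kb downstream, 24 at 454 kb upstream, 20 at 31.5 kb downstream and 18 at 160.1 kb downstream. The centre of the region in Gm9866 is shown as the highest of these, with its E-box match in capitals.
Sox11 distal region, GRCm38 chr12:27105209-27105508 (+ strand): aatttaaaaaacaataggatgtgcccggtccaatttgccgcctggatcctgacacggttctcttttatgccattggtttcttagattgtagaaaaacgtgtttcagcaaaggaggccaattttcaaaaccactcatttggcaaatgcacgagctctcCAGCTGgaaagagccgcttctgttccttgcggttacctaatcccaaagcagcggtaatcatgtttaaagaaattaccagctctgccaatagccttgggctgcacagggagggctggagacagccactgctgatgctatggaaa
Of the 40 Sox11 regions, 13 had at least 10 reads and 2 had 0. The largest region held 37.1% of the gene's reads, and 3 regions reached 50%. Upstream regions held 416 reads (69.2%), 223 of them in the largest promoter region, and downstream regions held 185. In GENCODE, Gm9866 covered 7 regions with 104 reads (17.3%) and had no region at its own promoters. Long noncoding RNA genes of RefSeq covered 11 Sox11 regions with 167 reads, among them those 31.5 and 160.1 kb downstream. The widest stretches between neighbouring region midpoints were 192 kb, from 262 to 454 kb upstream, and 107 kb, from 48.1 to 155 kb downstream. At Sox4 the widest was 55.2 kb. The share over 10 kb from the TSS (57.2%, interval 53.2 to 61.2%) was above the 39.7% of all reads and the 17.5% of the median gene, and 72.7% of genes had a lower one. Room was not equal here either, with 1039.6 kb of nearest sequence for Sox11 and 56.5 kb for the median gene. Among 248 genes with 1000 to 2000 kb, the medians were 58.5 promoter reads and 189.5 elsewhere, against 257 and 344 at Sox11. The interval of the Sox11 share did not overlap that of Sox4, but both intervals treat reads as independent. Since 3 regions reached 50% of the reads at Sox11 and 11 at Sox4, these intervals cannot decide a contrast between the genes. With noncoding TSSs included, Sox11 kept 11 regions with 327 reads, of which 21.4% lay over 10 kb away.

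Sox12 (ENSMUSG00000051817.8) spans 4453 bp at chr2:152393611-152398063 on the minus strand. Its layout was compact, with 6 of 7 regions in a 3.17-kb cluster (chr2:152396135-152399305) that held 582 reads (536 to 631). The largest region, chr2:152396135-152396547, did not lie at the TSS but 1.71 kb inside the gene, in 3′ untranslated sequence. It held 227 reads (198 to 259), more than 99.9% of regions over 1 kb from a TSS. A region 0.879 kb upstream (chr2:152398733-152399152) held 152 reads (129 to 178), and the region over the TSS (chr2:152397790-152398292) held 116 (95.9 to 139). These exceeded 91.7% and 87.1% of regions within 1 kb of a TSS. The coding exon region held 74 reads (58.1 to 92.9), and the other 2 regions of the cluster held 10 and 3. The TSS region thus had fewer reads than the region in the 3′ untranslated sequence, and their intervals did not overlap. The stretch upstream of the TSS is shown with its SP/KLF match, at bases 29 to 35, in capitals.
Sox12 promoter, GRCm38 chr2:152398064-152398296 (- strand): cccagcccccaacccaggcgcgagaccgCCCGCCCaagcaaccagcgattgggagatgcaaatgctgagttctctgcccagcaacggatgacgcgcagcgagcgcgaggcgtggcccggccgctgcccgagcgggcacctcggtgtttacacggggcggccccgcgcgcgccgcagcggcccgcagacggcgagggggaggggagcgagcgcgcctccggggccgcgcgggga

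The seventh Sox12 region stood alone at chr2:152406074-152406583, 8.27 kb upstream in intergenic sequence. It held 108 reads (88.6 to 130.4), above 99.4% of regions over 1 kb from a TSS. Its centre is shown as the single Sox12 region outside the cluster. None of the searched motifs matched in it, which says only that those letters are not in this window.
Sox12 upstream region, GRCm38 chr2:152406179-152406478 (+ strand): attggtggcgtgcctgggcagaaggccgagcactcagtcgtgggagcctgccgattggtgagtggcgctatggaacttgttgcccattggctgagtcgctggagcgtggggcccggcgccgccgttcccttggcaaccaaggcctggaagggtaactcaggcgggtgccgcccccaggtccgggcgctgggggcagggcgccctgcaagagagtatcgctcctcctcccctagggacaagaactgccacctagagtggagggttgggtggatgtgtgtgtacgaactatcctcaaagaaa
No Sox12 read lay over 10 kb from the TSS (0 of 690, upper bound of the interval 0.533%), and the rule leaves little room there. The line midway between the TSSs of Sox12 and Zcchc3 lay 8.48 kb upstream of Sox12. The 108 reads of the region 8.27 kb upstream thus went to Sox12 by a narrow margin. The TSS of Zcchc3, which encodes a zinc finger protein, lay 17.0 kb away, and that of Nrsn2, which encodes a neuronal vesicle protein, 21.4 kb away. These neighbours held 206 and 59 reads, of which 104 and 4 were at their promoters.

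**Figure D2:**
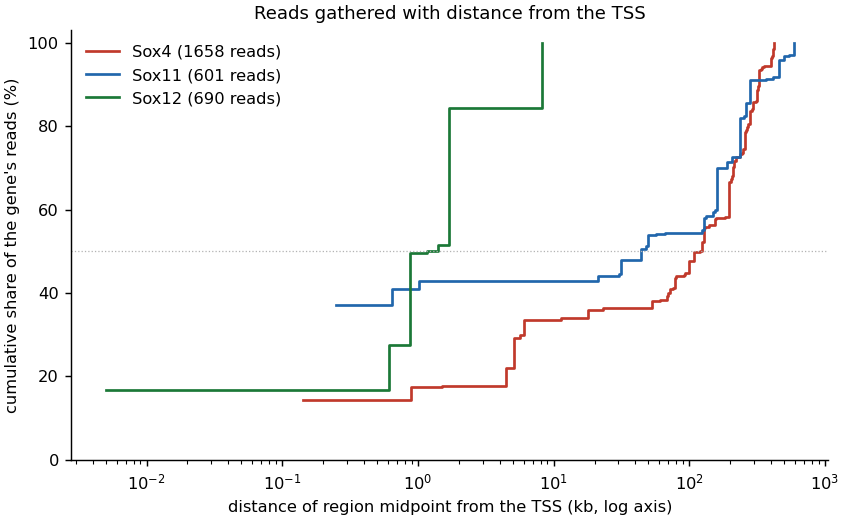
Cumulative share of each gene's reads (y axis, %) within a given distance of the TSS (x axis, kb, log scale), with 1 line a gene. Sox12 reached 50% within 1.17 kb, Sox11 within 44.3 kb and Sox4 within 120.3 kb.

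The plot of cumulative shares also gives the larger shares. At Sox4, 75% of the reads lay within 256 kb and 90% within 324 kb. At Sox11 the same shares were reached at 237 and 281 kb, and at Sox12 at 1.71 and 8.27 kb. The farthest regions were 418 kb upstream and 346 kb downstream of Sox4, and 591 kb upstream and 413 kb downstream of Sox11.

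The room that the rule gives each gene differed widely. The sequence nearer to a member's TSS than to any other protein-coding TSS was 799 kb for Sox4, 1039.6 kb for Sox11 and 19.2 kb for Sox12, against 56.5 kb for the median gene. The nearest protein-coding TSSs on either side of Sox4 belonged to Gm11361, 696 kb away, and Cdkal1, 902 kb away. Those around Sox11 belonged to Cmpk2, a mitochondrial nucleotide kinase gene 873 kb away, and Dcdc2c, a doublecortin-domain gene 1206 kb away. Per kb of this sequence Sox12 had 35.9 reads (percentile 99.2), Sox4 had 2.07 (percentile 66.1) and Sox11 had 0.578 (percentile 28.1), against 1.27 for the median gene. Per kb of region, Sox12 had 240.3 reads (percentile 98.2), Sox4 had 51.6 (percentile 53.0) and Sox11 had 45.0 (percentile 45.2), against 48.8 for the median gene. On both scales Sox12 came first and Sox4 lay between the other two.

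Set beside genes with a like amount of nearest sequence, the 3 differed. Among 647 genes with 500 to 1000 kb, the median was 272 reads in 21 regions, and 99.7% had fewer reads than Sox4. Among 248 genes with 1000 to 2000 kb, the median was 280 reads (quartiles 79.8 and 548), and 78.2% had fewer than Sox11. Among 1918 genes with 10 to 20 kb, the median was 48 reads in 2 regions, and 99.8% had fewer than Sox12. These are descriptions of genes of 1 library.

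**Figure D3:**
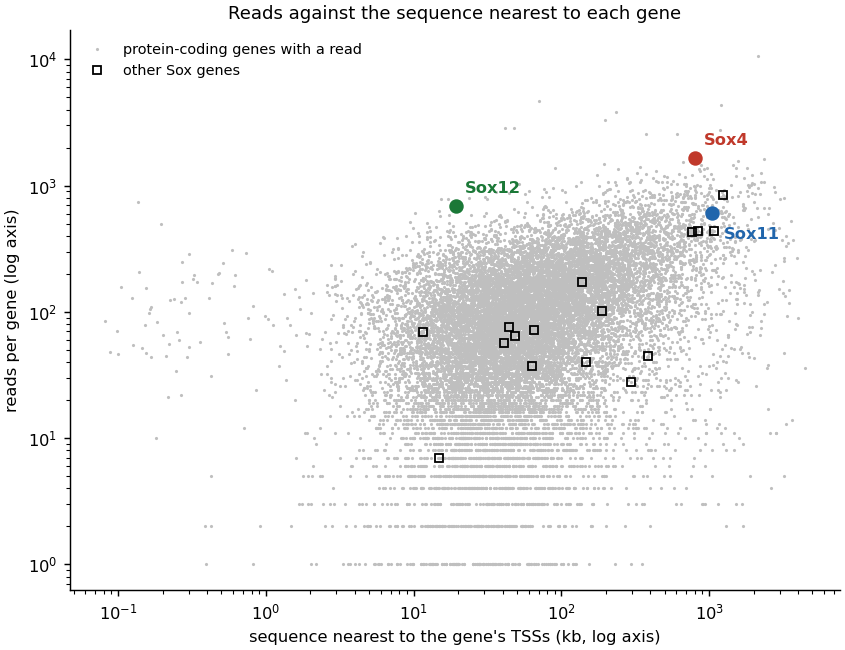
Reads per gene (y axis, log scale) against the sequence nearest to the gene's TSSs (x axis, kb, log scale) for protein-coding genes with a read, with the SOX genes marked. Sox4 (799 kb, 1658 reads) and Sox12 (19.2 kb, 690 reads) lie at the upper edge of genes at their position, and Sox11 (1039.6 kb, 601 reads) lies within the range of its neighbours.

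The regions away from promoters were compared with all such regions. The 99 Sox4 regions over 1 kb from a TSS had a median of 7 reads (quartiles 3 and 16), against 6 (3 and 13) for all 97141. At least 30 reads were found in 14 of them (14.1%), against 7.87% of all. The 38 Sox11 regions had a median of 5 reads, and 2 (5.26%) reached 30 reads. The 4 such Sox12 regions had a median of 59 reads. The total of Sox4 thus came with many regions of which the median was close to that of all regions.

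The genes ranked just above Sox4 had another distribution of reads. Each of the 10 genes above it held over 50% of its reads in a single region, the lowest such share being 76.0%. The 2 nearest were Smyd3, a methyltransferase gene with 2552 reads, and Gdf6, a BMP-family ligand gene with 2545. With the 15 regions of over 1000 reads left out, Sox4 ranked 1st, Sox12 ranked 245th and Sox11 346th. Each of the 10 genes above Sox4 had a region of at least 1935 reads, which this limit removed. The 1st place of Sox4 thus follows from the limit. Just below Sox4 were Cdh11, a mesenchymal cadherin gene, with 1632 reads in 81 regions, and Klhl29 with 1563 reads in 97. Both drew on more sequence than Sox4, 2343 and 1572 kb. Genes next to Sox12 were Runx1, a runt-domain factor gene with 691 reads in 60 regions, Gm10295 with 690 in 57, Skil, a SMAD corepressor gene with 688 in 13, and Phlda1 with 686. Genes next to Sox11 were Negr1 (603 reads), Eef2k (602), Fignl1 (600) and Sash1 (600). The likeness here is in total reads of 1 library alone.

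Within the SOX family, the group C genes had the highest promoter values. All 19 Sox genes of the list had a region, and the 3 members held 2949 of their 5863 reads (50.3%) and 888 of their 1405 promoter reads (63.2%). The lowest of the 3, Sox11 with 257 promoter reads, stood above the highest of the others, Sox9 with 93 (75.1 to 114). The other 16 genes had a median of 31.5 promoter reads, and 4 of them exceeded the median gene. In total reads the separation was not present, since Sox9, the cartilage and neural crest factor gene of group E, had 846 reads, above Sox11 and Sox12. Of those 846, 753 were away from the promoter, in 1250 kb of nearest sequence.

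The other groups followed at lower values. In group D, which includes the chondrocyte coactivators, Sox5 had 436 reads, Sox6 had 430 and Sox13 had 171, with 36, 51 and 40 at the promoters. In group B1, neural progenitor factors, Sox2 had 434 reads, Sox1 had 40 and Sox3 had 28, with 56, 8 and 26 at the promoters. Sox2 is also a marker of dental epithelial stem cells. In group E, the neural crest and glial gene Sox10 had 76 reads and no promoter region, and Sox8 had 57. In group F, endothelial and endoderm factors, Sox17 had 102 reads, Sox18 had 69 and Sox7 had 37. Sox21 and Sox14 of group B2 had 72 and 45 reads, Sox30 had 64 and Sox15 had 7. Of the 16 genes, 6 lay above the median gene of 85 reads.

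**Figure D4:**
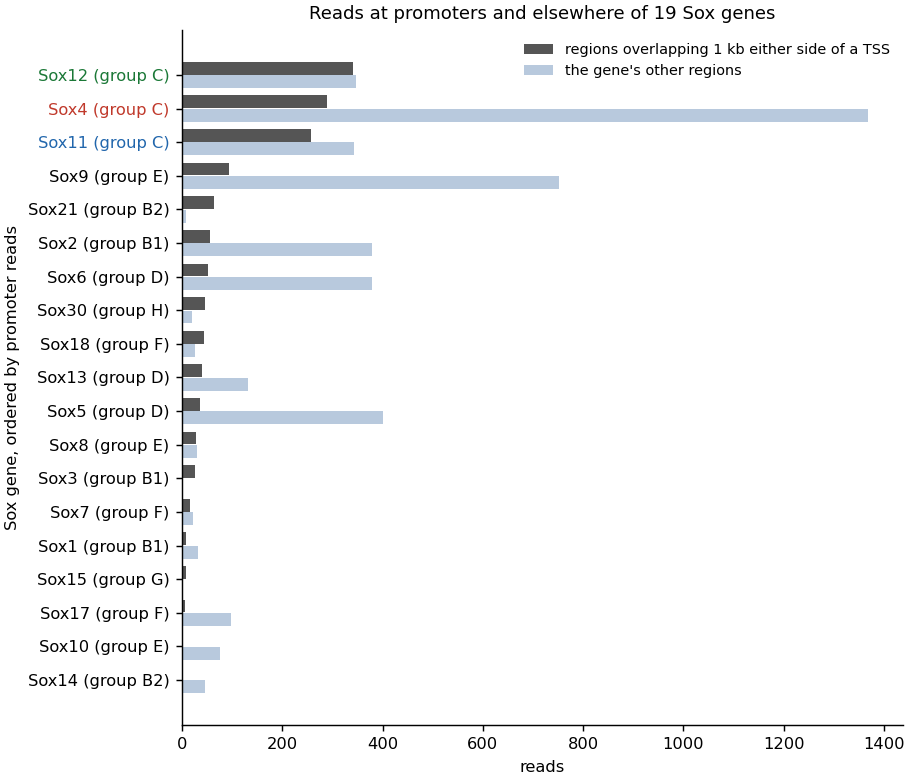
Reads at the promoter and elsewhere (x axis) for 19 Sox genes ordered by promoter reads (y axis). Sox12, Sox4 and Sox11 lead at the promoter with 342, 289 and 257 reads, ahead of Sox9 with 93, while Sox4 and Sox9 have most reads elsewhere (1369 and 753).

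Genes that work with or under the group C factors gave mixed values. Of 4 POU-domain partner genes, Pou3f3 with 318 reads was above the median gene, 6 of its reads being at the promoter. Pou3f1 had 81, Pou3f2 had 46 and Pou3f4 had 11. Of 11 genes named in the literature as dependent on group C factors, all had a region and 6 lay above the median gene, with a median of 109 reads and 34 promoter reads. The skeletal factor genes Runx2 and Sp7 had 507 and 282 reads, 83 and 27 of them at the promoter. The semaphorin gene Sema3c had 192 reads and the semaphorin receptor gene Plxnb1 had 149, of which 128 were at the promoter. Ezh2, the Polycomb methyltransferase gene, had 157 reads, of which 156 were in a single promoter region. Prox1 had 109 reads, Stmn1 had 70, the neuronal tubulin gene Tubb3 had 58, Tead2 had 21, Gdf5 had 18 and Dcx, a neuronal migration gene, had 10. Dcx had no promoter region.

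Sequence motifs were counted as exact letters on both strands in 300-bp windows centred on each region over 1 kb from a TSS. Windows of abutting regions overlap (22 of the 99 windows of Sox4 overlap another), and windows of 1 gene are not independent, so the counts describe the gene. The SOX motif itself (AACAAAG or AACAATG) was in 16 Sox4 windows (16.2%, interval 9.53 to 24.9%) and 2 of 38 Sox11 windows (5.26%), against 13.4% of all windows. The highest Sox4 window with a SOX match lay 99.2 kb downstream, in the region of 46 reads. The SP/KLF motif was in 14 Sox4 windows (14.1%, interval 7.95 to 22.6%), against 5.11% of all, and in no Sox11 window. Those 14 Sox4 regions held 442 reads and included the regions 4.46 and 5.09 kb upstream and the one 195 kb downstream. CpG-rich windows, with a CpG ratio above 0.6, were 8 of 99 at Sox4 (8.08%) against 5.16% of all. The part of base composition in the SP/KLF count was not tested.

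The other motif groups are given beside their share of all windows, and several rested on few windows. The homeobox core TAATTA was in 19 Sox4 windows (19.2%) and 1 Sox11 window (2.63%), against 13.9%. RUNX (AACCACA) was in 12 (12.1%) and 5 (13.2%), against 9.95%. The E-box was in 37 (37.4%) and 16 (42.1%), against 41.2%. AP-1 (TGAGTCA or TGACTCA) was in 4 (4.04%) and 3 (7.89%), against 7.48%. TEAD (ACATTCC) was in 4 (4.04%) and 3 (7.89%), against 6.39%. NFY was in 4 (4.04%) and 3 (7.89%), against 3.35%. LEF/TCF (ATCAAAG), which differs from the SOX letters at 1 base, was in 3 (3.03%) and 1 (2.63%), against 4.54%. CTCF, GLI, CRE and NFI motifs had no match in either gene's windows, with 1.36%, 0.314%, 0.316% and 0.0587% of all windows matching. Of all 7 Sox12 windows, at any distance, 1 had a SOX match, the one over the TSS, against 11.8% of all 121574 windows. SP/KLF was in 4 of the 7, against 11.4%, and 1 of these 4 lay over 1 kb from the TSS. The E-box was in 2, against 38.3%, and the other groups had no match.

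**Figure D5:**
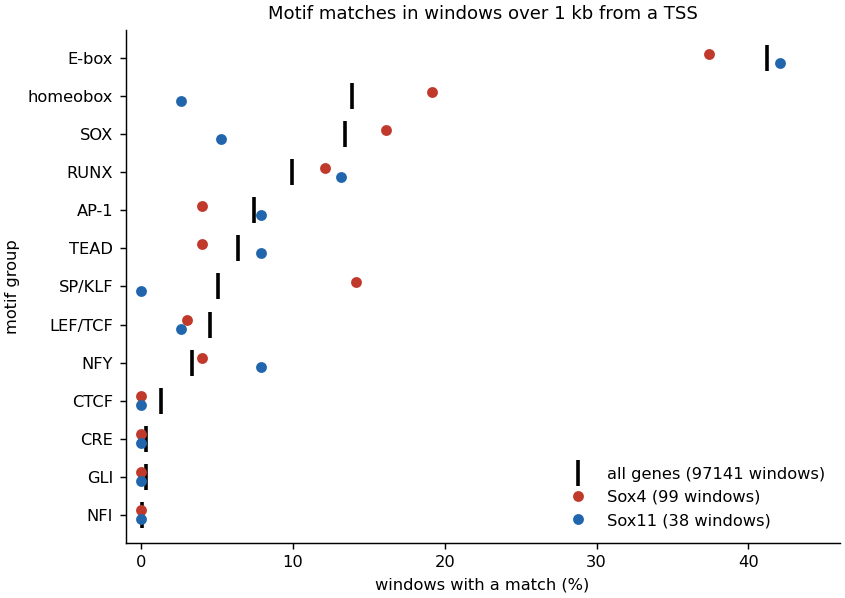
Share of 300-bp windows over 1 kb from a TSS with a match (x axis, %) for each motif group (y axis), for all windows, 99 Sox4 windows and 38 Sox11 windows. The SP/KLF share of Sox4 (14.1%) lies above that of all windows (5.11%), and the SOX shares are 16.2% for Sox4, 5.26% for Sox11 and 13.4% for all.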

How the data were processed

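ATAC-seq was done on wild-type incisor dental mesenchyme. Per the labels' protocols, paired-end reads were aligned to UCSC mm10 with BWA-MEM, peaks called with MACS2 and annotated with HOMER; the submitters' processing notes name STAR 2.6.1d and Partek without roles. Transposase shift, duplicate removal and the libraries used for calling are not given in the sources used here; retained duplicates would raise counts. The authors deposited CPM values for 121574 regions, each with 1 read added. Reads were recovered as value divided by 0.0484 CPM, minus 1, whole within 0.01 for 99.9% of regions (84 exceptions). The value of 1 read implies a CPM divisor of 20662737, and the reads in regions were 11.1% of it. Which reads this divisor counts was not examined. The authors also deposited expected counts for 16382 regions, which held all 40 Sox11 regions and matched the recovered reads (largest difference 0.00155). A further 1 value column, matched to no sample here, was not used. The lanes share 1 column, so values by lane, and any test, could not be had.

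Regions were assigned by midpoint to GENCODE vM21 basic protein-coding TSSs with Python 3.11.15, pandas 2.3.3 and SciPy 1.17.1. Upstream sequence was taken where both GENCODE and RefSeq (GRCm38.p6) place it before the TSS; all 3 members matched RefSeq. Named genes were the members, the other Sox genes, the nearest genes on either side, the 2 genes above and below each in reads, and the lists; named regions were those at promoters and the 8 (Sox12: all) with most reads, and 2 more of Sox4 (99.2 and 281 kb downstream) were added after their values were seen. Members and lists were chosen with earlier results of these data known.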

Additional observations from a re-analysis of the deposited data

How the results depend on the processing

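Of 58 alternatives to the reads, promoter reads, percentiles and distal shares, 28 left the value within its counting interval and 30 moved it; none had a test. Counting TSSs of noncoding genes lowered reads to 556 for Sox4 and 327 for Sox11, below the 690 of Sox12, and the share over 10 kb away, a setting added after seeing the data, to 0% for Sox4 and 21.4% for Sox11. Regions of at least 10 reads gave 1450 reads and a distal share of 62.1% for Sox4, 499 and 48.5% for Sox11, and percentile 98.9 for Sox12. All regions within 100 kb gave 790, 327 and 1219 reads (Sox4, Sox11, Sox12), with Sox12 first. A promoter of 500 bp either side gave 239 reads for Sox4 and 190 for Sox12, both below the 246 of Sox11, which turned the order, and 2 kb gave 582 for Sox12. Percentiles of Sox4, Sox11 and Sox12 were 66.1, 28.1 and 99.2 per kb of nearest sequence, 95.3, 94.4 and 94.7 by largest region, and 96.7, 95.3 and 97.9 at promoters. Per kb of region Sox4 was at 53.0 and Sox11 at 45.2. By number of regions Sox4 was at 99.98 and Sox12 at 68.1. Away from promoters Sox11 was at 96.7 and Sox12 at 96.8. Merging abutting regions, chosen after seeing the data, left 78, 34 and 4 regions, within 1.5 times the count for Sox4 and Sox11 but not for Sox12. The cause of these moves beyond the construction of each alternative was not tested. Leaving out a lane was not run, because the lanes share 1 column, and expected counts could be used for Sox11 alone, where they gave the same 601 reads. No paired analysis was possible because there is 1 group. At a median of 7 reads a region, single regions could be told apart only where counts differ widely.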
